A study of Mus musculus with 4 samples.

Results

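This account concerns 40 genes that the tumor suppressor p53 is known to induce, read by what their products do: cell cycle arrest and feedback (10 genes), apoptosis (16), DNA repair (5), metabolism (7) and 2 genes of other function. They were chosen by name, with earlier results of these data known. Of the 40, 38 are among the 13614 genes of the deposited count table. Eda2r, a TNF receptor family member, and Gdf15, a secreted cytokine, are not in that table and were not analysed here. The cells are mouse fetal liver cells of embryonic day 14.5 to 16.5, a tissue rich in blood stem and progenitor cells. They carry MLL-AF9, a fusion oncogene of acute leukemia, from a retroviral MSCV vector and were sorted by the GFP marker of that vector. The groups are Prl2 knockout (Prl2-/-) cells with 2 libraries and wild type (Prl2+/+) cells with 2 libraries, so the oncogene, vector and sort are shared by both genotypes. Prl2, now named Ptp4a2, codes for the phosphatase PRL2, and the title of the series names the p53 pathway, so the comparison asks whether p53 targets differ between the genotypes. Whether the libraries are from different embryos or cultures is not in the labels, and the p-values therefore cover no more than the spread between these libraries.

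p53 is a transcription factor held low by the ubiquitin ligase MDM2 and stabilized after DNA damage or oncogene stress. It binds response elements made of paired half-sites and induces genes that halt the cell cycle, trigger mitochondrial or death receptor apoptosis, repair DNA and adjust metabolism. In blood progenitors its targets p21 (Cdkn1a), PUMA (Bbc3) and NOXA (Pmaip1) are known for their part in arrest and cell death after damage.

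The sequence through which p53 acts was looked for in RefSeq promoter windows (GRCm38.p6), which run from 250 bases before to 50 bases after a start site and were given for 32 of the 40 genes. The p53 response element was taken as paired 10-base half-sites with at most 1 base between them and at most 2 mismatches, with C at position 4 and G at position 7 of each half-site intact. The half-site is its own reverse complement, so both strands are covered. Of the 32 genes, 4 had such an element (12.5%), against 218 of 27025 genes with a window (0.81%). The elements are shown as matches to the sequence that p53 binds, each on the strand of its gene, with the element in capitals and its flanks in lower case:
Cdkn1a (chr17:29090913-29090962, plus strand): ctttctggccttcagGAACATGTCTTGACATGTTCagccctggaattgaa
Ccng1 (chr11:40755447-40755496, minus strand): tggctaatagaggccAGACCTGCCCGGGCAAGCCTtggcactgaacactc
Bax (chr7:45467064-45467114, minus strand): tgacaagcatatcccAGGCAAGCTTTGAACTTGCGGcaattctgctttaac
Rps27l (chr9:66946281-66946330, plus strand): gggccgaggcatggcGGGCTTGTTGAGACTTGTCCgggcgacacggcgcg
The Cdkn1a, Ccng1 and Rps27l elements had 1 mismatch each, and the Bax element had 2 mismatches and a spacer of 1 base. The first base of the element lay at -51 from the more upstream of the start sites given for Cdkn1a, at -195 for Ccng1, at -201 for Bax and at -117 for Rps27l. A match is a description of the sequence, and no match says only that these letters are not in the window.

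The libraries held 15422309 and 15267768 counts in the knockout and 14625725 and 14921313 counts in the wild type. Ptp4a2 had 89 and 104 counts in the knockout libraries, against 4884 and 5105 in the wild type libraries, so each library matched its label. Wild type replicate 1 stands apart by sex-linked genes. Its Xist count was 11147, against 3 and 12 in the knockout libraries and 9 in wild type replicate 2, and its Ddx3y count was 12, against 1320 and 1173 in the knockout and 1271 in wild type replicate 2. All 9 listed markers of MLL-AF9 progenitors, among them Hoxa9, Meis1 and Kit, were in the table. None of the 5 hepatocyte markers and none of the 5 T cell markers were, nor was the B cell factor gene Pax5, while 3 other B cell markers summed to 309 and 363 CPM (counts scaled by library size and TMM factors) in the knockout and 477 and 442 CPM in the wild type. The 4 erythroid markers in the table summed to 1.70 and 2.44 CPM in the knockout and 13.2 and 7.95 CPM in the wild type. The 3 macrophage markers in the table (Vcam1, Csf1r and Adgre1) summed to 798 and 1062 CPM in the knockout and 410.0 and 470 CPM in the wild type, while C1qa, C1qb, C1qc and Mertk are not in the table. Vcam1 was higher in both knockout libraries, at 397 and 454 CPM, against 25.7 and 110.1 CPM in the wild type. Its wild type libraries were thus 4.28-fold apart. Adgre1 was also higher in both, by unequal margins, at 323 and 537 CPM against 285 and 251 CPM in the wild type. Csf1r was lower in both knockout libraries, at 77.2 and 70.3 CPM, against 99.7 and 109 CPM in the wild type. In such bulk libraries, fewer cells of a type and less RNA per cell cannot be told apart.

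No p53 target was called in the knockout. By edgeR's quasi-likelihood test with Benjamini-Hochberg adjustment over all genes, 0 of the 38 measured targets reached an adjusted p of 0.05 or less, where 1 of all 13614 genes did (0.00735%, Ptp4a2 itself). The smallest adjusted p of a target was 0.474. None of the targets was called by limma-voom, DESeq2 or the likelihood ratio test of edgeR either. Of these tests, DESeq2's Wald test gave the smallest adjusted p of a target, 0.078 for Cd82. The authors' deposited table lists 0 of the targets at an adjusted p of 0.05 or less, with a smallest value of 0.239. The targets with an unadjusted p below 0.05 numbered 3 (7.89%), against 9.89% of all genes. Of the 3, 2 were higher in the knockout, as were 5.66% of all genes, and 1 was lower, as were 4.23% of all genes. The log2 fold changes of the targets, knockout over wild type, had a median of -0.03, against -0.01 over all genes, with 17 positive and 21 negative, where 49.1% of all genes were positive. Levels in CPM did not overlap between the genotypes for 18 targets, or 47.4%, where 44.2% of all genes had no overlap. Of these 18, 11 were higher in both knockout libraries (22.2% of all genes were) and 7 were lower in both (21.9% of all genes).

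**Figure D1:**
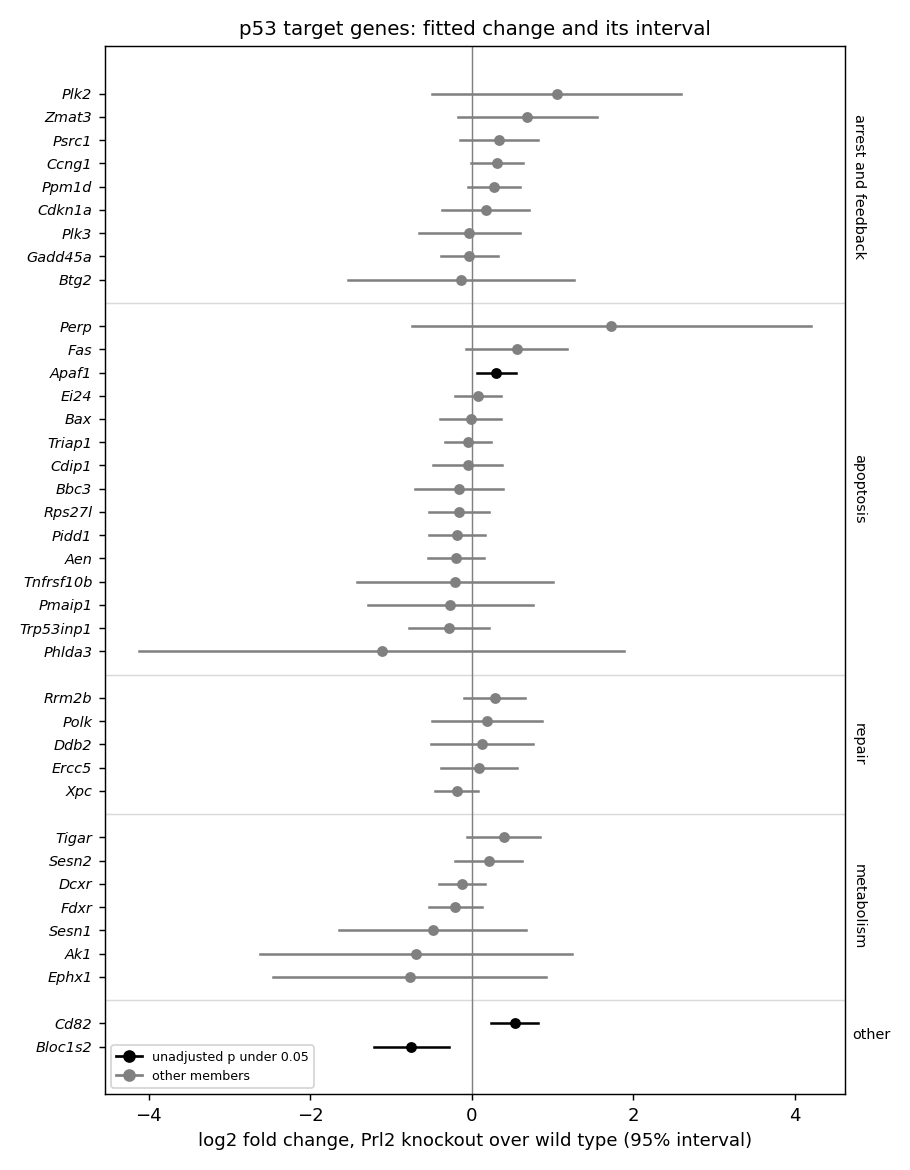
Fitted log2 fold change of each measured p53 target, Prl2 knockout over wild type (x axis), with its 95% interval, grouped by function (n = 2 libraries each). The intervals of Apaf1, Cd82 and Bloc1s2 (black) leave out 0, and 26 of the 38 intervals lie wholly between -1 and 1.

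The width of the intervals shows what could be seen. For 26 targets the 95% interval lay wholly between -1 and 1 on the log2 scale, so a doubling or a halving lay outside it. For the other 12 it reached further, as for Btg2 (-1.53 to 1.26) and Phlda3 (-4.13 to 1.89). The targets were expressed at a median of 8.27 RPKM (reads scaled by library size and by the deposited gene length), against 6.45 over all genes. By mean RPKM over the 4 libraries, the level was highest for the DNA damage sensor Xpc at 80.5, then Rps27l at 70.8, Cd82 at 53.5 and Pmaip1 at 49.5. It was lowest for the death receptor Tnfrsf10b at 0.253 and the RNA-binding protein gene Zmat3 at 0.307.

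Among the arrest and feedback genes, 9 of the 10 were measured, 0 were called, and 6 had a positive fold change. Their median was 0.27, against -0.01 over all genes. For 4 of the 9, Ccng1, Ppm1d, Zmat3 and Psrc1, both knockout libraries lay above both wild type libraries, and none lay below, where 22.2% of all genes lay above and 21.9% below. That is 44.4% of the class with no overlap, against 44.2% of all genes. None of the 9 reached an unadjusted p under 0.05 in the quasi-likelihood test.

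Cdkn1a encodes p21, the inhibitor of cyclin-dependent kinases through which p53 halts the cycle, and lies on chromosome 17 from 29090976 to 29100727 (mm10). It was at 46.3 and 47.7 CPM in the knockout libraries, and at 50.4 and 32.9 CPM in the wild type libraries. Both knockout values lay between the wild type values. The log2 fold change was 0.17 (SE 0.22, 95% interval -0.36 to 0.71, adjusted p = 0.810). Without wild type replicate 1 it was 0.50, and without wild type replicate 2 it was -0.10. Of its exonic bases, 7.68% are shared with a gene on the opposite strand, and the strand setting of the counting is not given in the sources used here.

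Ccng1 encodes cyclin G1, which directs a phosphatase to MDM2 in a feedback loop on p53. It had 108 and 127 CPM in the knockout, against 88.7 and 101 CPM in the wild type, so the knockout libraries were the higher ones with a narrow gap. Cyclin G1 thus had a log2 fold change of 0.31 (SE 0.13, unadjusted p = 0.0559, adjusted p = 0.516). Ppm1d encodes WIP1, a phosphatase that turns the damage response off. It had 43.6 and 40.5 CPM in the knockout and 33.2 and 36.4 CPM in the wild type, with a log2 fold change of 0.27 (SE 0.13, adjusted p = 0.538).

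Zmat3, an RNA-binding protein gene that acts downstream of p53, was low throughout, with 53 and 79 counts in the knockout and 39 and 41 in the wild type. Its log2 fold change was 0.69 with an interval of -0.17 to 1.56, and it was 0.37 without Prl2 knockout replicate 2. Psrc1, which encodes a spindle-associated protein, had 13.0 and 12.6 CPM in the knockout and 10.4 and 9.90 CPM in the wild type. That is a log2 fold change of 0.34 (SE 0.20), with replicates close to each other in both genotypes.

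The other arrest genes overlapped between the genotypes. Btg2, an antiproliferative gene, was at 62.9 and 86.2 CPM in the knockout and 115.3 and 48.5 CPM in the wild type, which puts the highest and the lowest value in the same genotype. Gadd45a, a damage-inducible regulator of growth arrest and the gene of highest level in the class at 32.5 RPKM, had 50.6 and 62.9 CPM in the knockout and 58.6 and 57.4 CPM in the wild type. The log2 fold changes of Btg2 and Gadd45a were -0.14 (SE 0.49) and -0.03 (SE 0.14). Of the exonic bases of Gadd45a, 19.1% are shared with a gene on the opposite strand. Plk2, a polo-like kinase gene, had a high value in 1 library only, with 3.40 and 11.1 CPM in the knockout against 4.08 and 2.90 CPM in the wild type. Its log2 fold change of 1.05 (SE 0.61) became -0.04 without Prl2 knockout replicate 2. The related kinase gene Plk3 had a log2 fold change of -0.03 (SE 0.25).

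**Figure D2:**
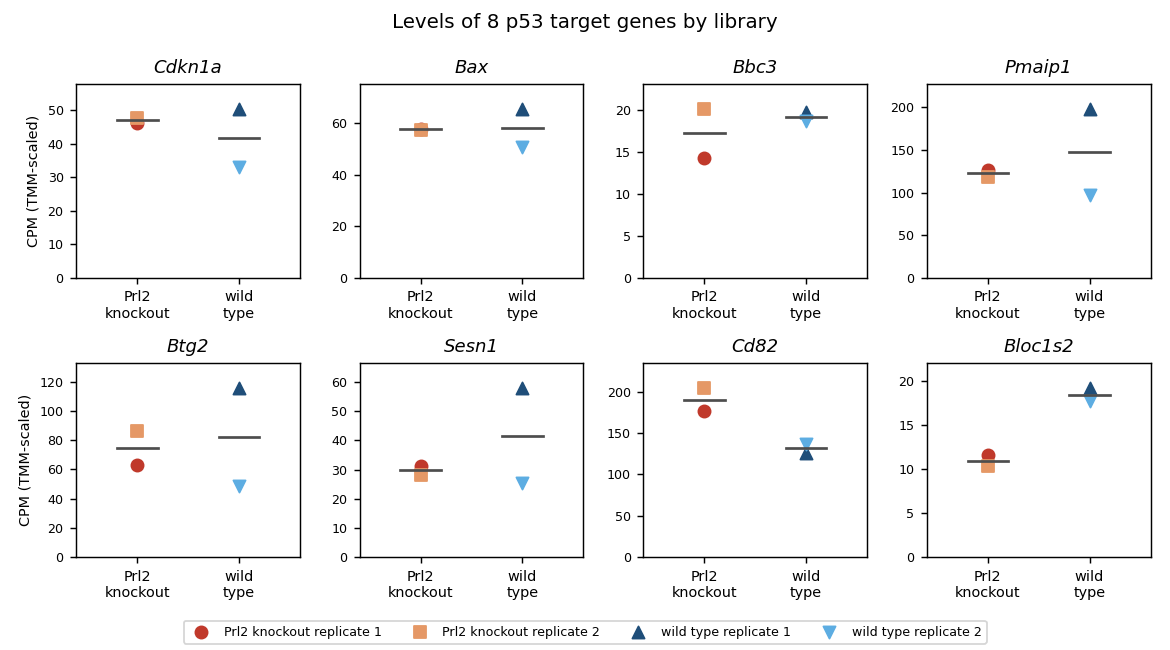
CPM (y axis, from 0, TMM-scaled) of 8 p53 targets in each library, with Prl2 knockout left and wild type right and the bars at the means of 2 libraries. In Cdkn1a, Bax, Pmaip1, Btg2 and Sesn1 the knockout values lie between a high wild type replicate 1 and a low wild type replicate 2, while the genotypes do not overlap in Cd82 and Bloc1s2.

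Among the apoptosis genes, 15 of the 16 were measured and 0 were called. Their median log2 fold change was -0.16, with 4 positive and 11 negative, where 49.1% of all genes were positive. Both knockout libraries lay above both wild type libraries for Apaf1, Fas and Perp, and below them for Pidd1, Aen and Triap1, while 9 genes overlapped. That is 40% of the class with no overlap, against 44.2% of all genes (22.2% above and 21.9% below). Without wild type replicate 1 the median was -0.03. The difference between the medians of the arrest and the apoptosis genes was not tested.

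The genes Bax, Bbc3 and Pmaip1, whose products act at the mitochondria, gave no separation of the genotypes. Bax, the pore-forming BCL2 family member, had 57.6 and 57.3 CPM in the knockout and 65.4 and 50.6 CPM in the wild type. Its log2 fold change was -0.01 (SE 0.15, 95% interval -0.39 to 0.37). It was 0.17 without wild type replicate 1 and 0.09 once the dependence on gene length was taken out of each library. Of the exonic bases of Bax, 12.2% are shared with the protein-coding gene Gm45808 on the same strand.

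Bbc3, which encodes the BH3-only protein PUMA, had 14.3 and 20.1 CPM in the knockout and 19.7 and 18.7 CPM in the wild type. Here the knockout libraries held both the lowest and the highest value. The log2 fold change was -0.16 (SE 0.22), and 0.07 without Prl2 knockout replicate 1.

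Pmaip1, which encodes the BH3-only protein NOXA, was at 127 and 119 CPM in the knockout and 198 and 97.4 CPM in the wild type. The wild type libraries were 2.03-fold apart, and both knockout libraries lay between them. Over the 4 libraries the log2 fold change was -0.27 (SE 0.37, adjusted p = 0.837). It was 0.32 without wild type replicate 1 (unadjusted p = 0.0353) and -0.69 without wild type replicate 2 (unadjusted p = 0.000963), so the direction of Pmaip1 followed the wild type library that was kept.

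Apaf1, the scaffold of the apoptosome that activates caspase-9, lies on chromosome 10 from 90989311 to 91082770 (mm10). It was the 1 apoptosis gene at an unadjusted p under 0.05. It had 215 and 210.3 CPM in the knockout, against 177 and 167 CPM in the wild type, with replicates close to each other in both genotypes. The means were 213 ± 3.37 and 172 ± 7.03 CPM (SD, n = 2 each). The log2 fold change was 0.31 (SE 0.10, 95% interval 0.06 to 0.55, unadjusted p = 0.0221, adjusted p = 0.474). With the gene length trend taken out it was 0.20 (unadjusted p = 0.0948). The unadjusted p was also above 0.05 in the likelihood ratio test and without any 1 library other than wild type replicate 1.

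The death receptor gene Fas had 9.22 and 7.46 CPM in the knockout and 5.89 and 5.46 CPM in the wild type, a log2 fold change of 0.56 (SE 0.25, adjusted p = 0.534). With the gene length trend taken out, the log2 fold change of Fas was 0.64 (quasi-likelihood unadjusted p = 0.048). Tnfrsf10b, the mouse TRAIL receptor gene, had 21 and 18 counts in the knockout and 29 and 15 counts in the wild type, too few to tell the genotypes apart. Perp, a membrane protein gene, had 59 and 124 counts in the knockout and 47 and 7 counts in the wild type. Its replicates were more than 2-fold apart in both genotypes, and its log2 fold change of 1.73 had an SE of 0.92. That value was 3.64 without wild type replicate 1, 0.93 without wild type replicate 2 and 1.09 when Prl2 knockout replicate 2 was left out.

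Phlda3, an inhibitor of AKT, and Trp53inp1, a p53 cofactor gene, were highest in wild type replicate 1. Phlda3 had 8 and 13 counts in the knockout and 42 and 3 in the wild type, and Trp53inp1 had 24.0 and 25.9 CPM in the knockout and 35.4 and 25.3 CPM in the wild type. Rps27l, a ribosomal protein paralog, had 60.0 and 49.3 CPM in the knockout and 65.7 and 56.2 CPM in the wild type, with a log2 fold change of -0.16 (SE 0.15). The remaining apoptosis genes, Pidd1, Ei24, Aen, Cdip1 and Triap1, had log2 fold changes from -0.19 to 0.08, with SEs from 0.12 to 0.17.

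The 5 repair genes were all measured, 0 were called, and 4 had a positive fold change with a class median of 0.13. Xpc, the nucleotide excision repair sensor and the most abundant target per length, was the exception. It had 401 and 427 CPM in the knockout, against 484 and 457 CPM in the wild type, so both knockout libraries were lower. Its log2 fold change was -0.18 (SE 0.11, 95% interval -0.45 to 0.08, adjusted p = 0.591).

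Rrm2b, the p53-inducible subunit of ribonucleotide reductase that supplies nucleotides for repair, was higher in both knockout libraries, at 24.1 and 26.2 CPM, against 20.7 and 20.5 CPM in the wild type. The fold change of Rrm2b on the log2 scale was 0.29 (SE 0.15, adjusted p = 0.573). Ddb2, the partner of Xpc in damage recognition, had 7.79 and 8.12 CPM in the knockout and 8.29 and 6.26 CPM in the wild type. Those values overlap, and 23.8% of the exonic bases of Ddb2 are shared with Acp2 on the opposite strand. The translesion polymerase gene Polk had 11.5 and 7.86 CPM in the knockout and 9.16 and 7.81 CPM in the wild type. On the log2 scale the fold change was 0.13 (SE 0.26) for Ddb2, 0.19 (SE 0.28) for Polk and 0.09 (SE 0.19) for the repair nuclease gene Ercc5. Without wild type replicate 1 the class median was 0.28.

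The 7 metabolism genes were all measured and 0 were called, with 2 positive and 5 negative fold changes. Their median was -0.20 over the 4 libraries and 0.28 without wild type replicate 1. Tigar, a phosphatase that lowers glycolytic flux, had 39.6 and 29.4 CPM in the knockout and 26.1 and 26.3 CPM in the wild type. On the log2 scale Tigar differed by 0.40 (SE 0.18, adjusted p = 0.534), and both knockout libraries were the higher ones, by unequal margins. Leaving out Prl2 knockout replicate 1 gave 0.16, and leaving out Prl2 knockout replicate 2 gave 0.60.

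The sestrin genes code for proteins that restrain mTORC1, and a difference between them was not tested. Sesn1 had 31.3 and 28.1 CPM in the knockout and 57.8 and 25.4 CPM in the wild type, so its mean followed wild type replicate 1. Its log2 fold change of -0.48 (SE 0.42) became 0.22 without that library. Sesn2 had 22.6 and 20.9 CPM in the knockout and 19.8 and 17.7 CPM in the wild type, a log2 fold change of 0.21 (SE 0.17).

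Fdxr, the mitochondrial ferredoxin reductase gene, had 29.0 and 29.7 CPM in the knockout and 32.6 and 35.1 CPM in the wild type, a log2 fold change of -0.20 (SE 0.13). Dcxr, a carbonyl reductase gene, was close to even, with 642 and 648 counts in the knockout and 679 and 691 counts in the wild type. The adenylate kinase gene Ak1 had 62 and 91 counts in the knockout and 196 and 47 in the wild type. Ephx1, an epoxide hydrolase gene, had 15 and 16 counts in the knockout and 41 and 11 in the wild type, so both of these genes were highest in wild type replicate 1 and lowest in wild type replicate 2. Log2 fold changes were -0.12 (SE 0.12) for Dcxr, -0.69 (SE 0.72) for Ak1 and -0.77 (SE 0.68) for Ephx1.

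The other 2 targets had the smallest unadjusted p-values of the 38, in opposite directions. Cd82, a tetraspanin of the cell surface known as a metastasis suppressor, lies on chromosome 2 from 93419111 to 93463140 (mm10). It had 177 and 204 CPM in the knockout, against 126 and 137 CPM in the wild type. The log2 fold change was 0.53 (SE 0.12, 95% interval 0.24 to 0.83, unadjusted p = 0.00467, adjusted p = 0.474). It lay between 0.42 and 0.63 when any 1 library was left out. By DESeq2's Wald test the adjusted p of Cd82 was 0.078. Of the macrophage markers given above, Vcam1 and Adgre1 were also higher in both knockout libraries and Csf1r was lower in both, and their part in the Cd82 values was not tested.

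Bloc1s2, which encodes a subunit of a lysosome-related organelle complex, lies on chromosome 19 from 44139246 to 44146446 (mm10). It had 11.6 and 10.4 CPM in the knockout, against 19.2 and 17.7 CPM in the wild type, and the genotypes were well apart. The log2 fold change was -0.75 (SE 0.19, 95% interval -1.21 to -0.28, unadjusted p = 0.00795, adjusted p = 0.474). Bloc1s2-ps, a pseudogene listed in the same table, had 11 and 9 counts in the knockout and 20 and 13 in the wild type, so reads shared between the copies are uncertain.

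**Figure D3:**
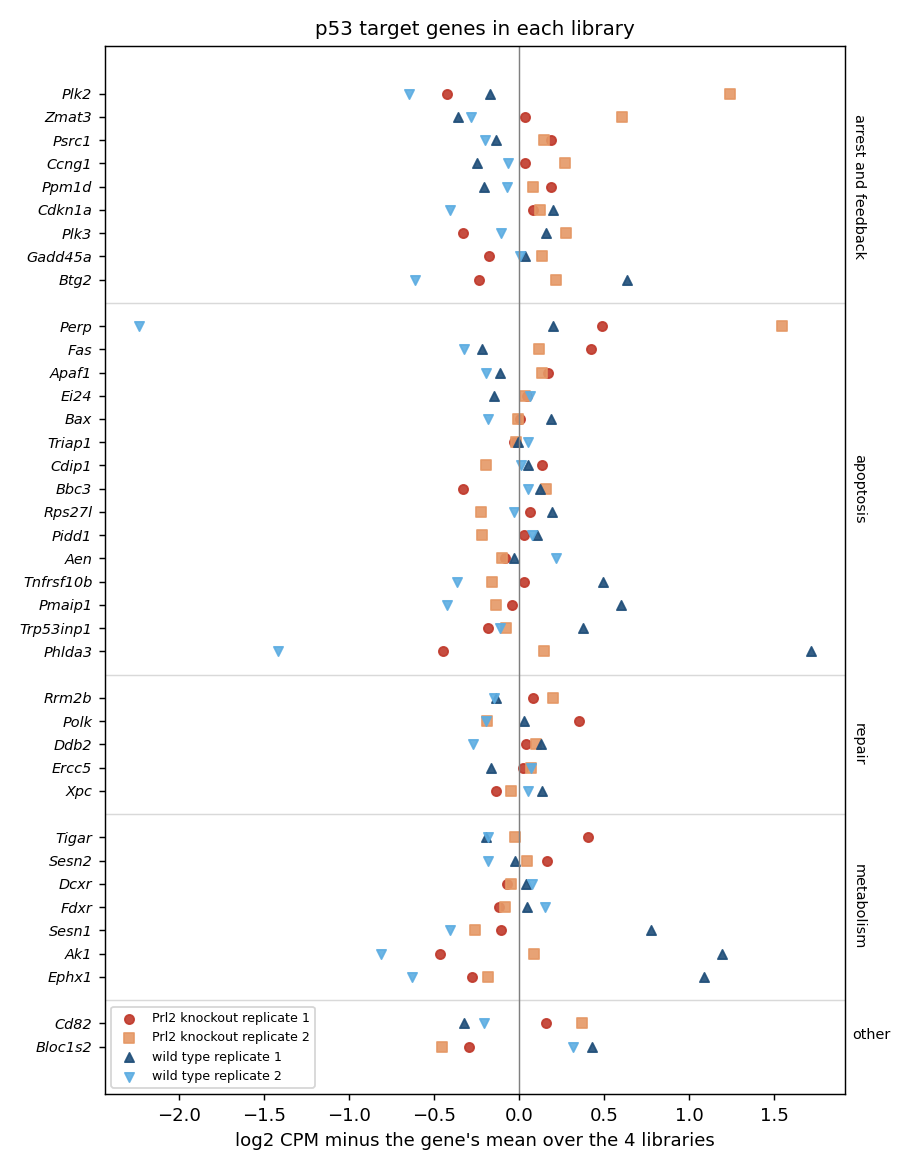
Log2 CPM of each measured p53 target minus its mean over the 4 libraries (x axis), 1 row per gene by function, with a marker for each library. Wild type replicate 1 (dark triangle) is the highest library for 15 of the 38 genes and wild type replicate 2 (light triangle) the lowest for 18.

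The wild type libraries also differed from each other. Wild type replicate 1 was the highest of the 4 libraries for 15 targets, or 39.5%, against 28.9% of all genes, and wild type replicate 2 was the lowest for 18, against 24.2% of all genes. Both knockout libraries lay between the wild type libraries for 11 targets, or 28.9%, against 16.4% of all genes. These 11 include Cdkn1a, Btg2, Bax, Pmaip1 and Sesn1. For 19 targets, or 50%, the wild type libraries differed by more than the genotype means did, as was so for 55% of all genes.

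The wild type libraries were 2-fold or more apart for 7 targets (18.4%), against 8.87% of all genes. These are Btg2, Pmaip1, Perp, Phlda3, Sesn1, Ak1 and Ephx1, and wild type replicate 1 was the higher library in each of them. Wild type replicate 1 was 2-fold or more the higher one in 6% of all genes. The knockout libraries were 2-fold or more apart for 2 targets, Plk2 and Perp, against 7.27% of all genes.

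The choice of wild type library set the direction of several targets. Wild type replicate 1 is the library set apart above by Xist and Ddx3y. Over all genes the median log2 fold change was 0.0024 without wild type replicate 1 and -0.0067 without wild type replicate 2. Without wild type replicate 1, 7 targets had an unadjusted p under 0.05 (9.73% of all genes did), 6 of them higher in the knockout (5.52% of all genes), and the median log2 fold change of the targets was 0.25. Without wild type replicate 2, 10 targets did (14.2% of all genes), 8 of them lower in the knockout (6.38% of all genes), and the median was -0.07. Without Prl2 knockout replicate 1 there were 3 (4.42% of all genes), and without Prl2 knockout replicate 2 there were 2 (5.32% of all genes). With 1 library fewer, targets with no overlap numbered 25 and 24 without knockout replicates 1 and 2 (69.3% of all genes each), 31 without wild type replicate 1 (73.7%) and 32 without wild type replicate 2 (76%). At p under 0.05, Pmaip1 and Btg2 were in both wild type sets, with opposite signs. None of the targets was called in any of these fits, and the smallest adjusted p of a target was 0.164, for Sesn1 without wild type replicate 2.

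Some listed cell type markers also differed between the wild type libraries, in both directions. Cd34, the progenitor surface marker, had 242 and 272 CPM in the knockout and 414 and 171 CPM in the wild type. Pecam1, the 1 endothelial marker in the table, had 207 and 309 CPM in the knockout and 393 and 202 CPM in the wild type, while Cdh5, Kdr, Tek and Emcn are not in the table. Itga2b, a megakaryocyte and progenitor integrin gene, had 11.9 and 19.5 CPM in the knockout and 43.1 and 10.2 CPM in the wild type. These 3 genes were highest in wild type replicate 1 and lowest in wild type replicate 2, while Gp9, the other megakaryocyte marker in the table, had 4.51 and 4.82 CPM in the knockout and 6.42 and 10.9 CPM in the wild type. Of the 9 progenitor markers, Cd34, Hoxa9, Hoxa10 and Myb were higher in wild type replicate 1 than in wild type replicate 2, and Mpo, Kit, Itgam, Meis1 and Ptprc were lower. Mpo had 1189 and 561 CPM in the knockout and 1193 and 3009 CPM in the wild type. The macrophage marker Vcam1 was lower in wild type replicate 1 as well, at 25.7 CPM against 110.1 CPM in wild type replicate 2. Csf1r was also lower there, and Adgre1 was higher. The part of these markers and of sex in the values of the p53 targets was not tested.

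**Figure D4:**
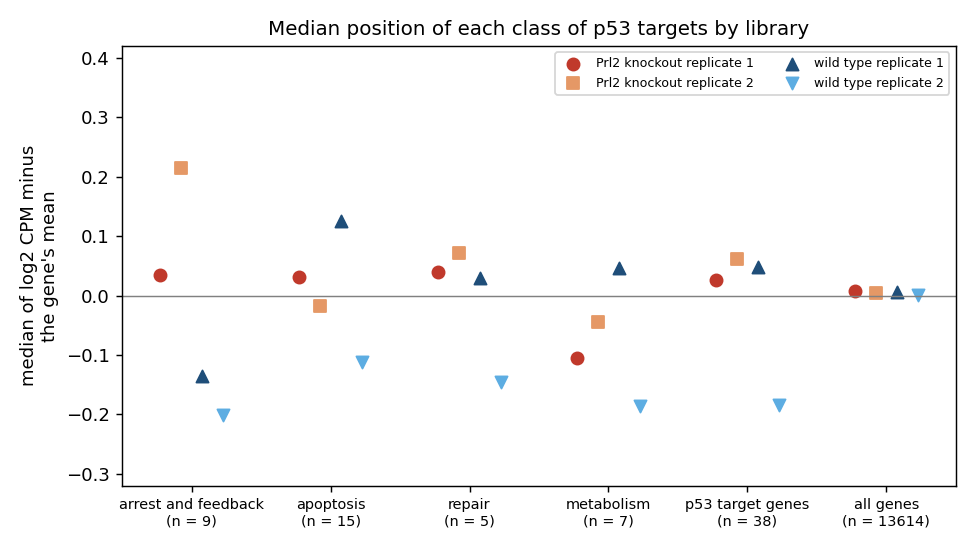
Median over the measured genes of each class of log2 CPM minus the gene's mean (y axis), for each library, with all p53 targets and all 13614 genes at the right. For the arrest and feedback genes both knockout libraries (0.03 and 0.22) lie above both wild type libraries (-0.13 and -0.20), and for the repair genes they do so by a narrow margin (0.04 and 0.07 against 0.03 and -0.15).

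The median position by library differed in its order between the classes. For the apoptosis genes the medians relative to the gene's mean were 0.03 and -0.02 in the knockout and 0.13 and -0.11 in the wild type. For the metabolism genes they were -0.11 and -0.04 in the knockout and 0.05 and -0.19 in the wild type. For the arrest and feedback genes they were 0.03 and 0.22 in the knockout and -0.13 and -0.20 in the wild type, and without Prl2 knockout replicate 2 the median log2 fold change of that class was 0.15. Over all genes each library was at 0.01 or nearer to 0.

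Of the genes around the targets, none on the lists given here was called by the quasi-likelihood test. Calls of these genes by the other tests are not given here. Trp53, the gene of p53 itself, had 135 and 120 CPM in the knockout and 128 and 111 CPM in the wild type. Mdm2, both a target and the main inhibitor of p53, had 103 and 95.4 CPM in the knockout and 108 and 86.5 CPM in the wild type. Of 22 listed genes of p53 and its regulators, 0 were called, 16 had a positive fold change, and 4 (18.2%) had an unadjusted p under 0.05, all higher in the knockout. Over all genes 49.1% were positive and 9.89% had such a p, 5.66% higher and 4.23% lower in the knockout. The kinase genes Hipk2 and Atm, whose products phosphorylate p53, had the smallest p-values. Hipk2 had 82.8 and 94.2 CPM in the knockout and 48.6 and 50.2 CPM in the wild type, a log2 fold change of 0.84 (SE 0.12, quasi-likelihood adjusted p = 0.474). Atm had 58.7 and 44.2 CPM in the knockout and 30.7 and 38.9 CPM in the wild type, a log2 fold change of 0.56 (SE 0.20, adjusted p = 0.494).

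Of 18 further genes that p53 can induce, 0 were called and 11 had a positive fold change, with a median of 0.04. At an unadjusted p under 0.05 were 4 (22.2%, against 9.89% of all genes), with 2 higher and 2 lower in the knockout. Ninj1, which encodes a membrane protein of lytic cell death, had 50.6 and 47.6 CPM in the knockout and 75.6 and 96.2 CPM in the wild type. Pml, the gene of the nuclear body protein that helps activate p53, had 122 and 113 CPM in the knockout and 82.3 and 91.5 CPM in the wild type. The 2 genes thus separated the genotypes in opposite directions.

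Genes that p53 lowers through p21 and the DREAM complex, chiefly mitotic genes, were listed as well. Like the lists above, this list was chosen with earlier results of these data known, and its shares were not tested. Of 16, 0 were called, 15 had a positive fold change (93.8%, against 49.1% of all genes), and the median was 0.31. An unadjusted p below 0.05 was reached by 6 (37.5%, against 9.89% of all genes), all higher in the knockout, among them Ccna2 (cyclin A2) and Kif23 (a kinesin of cytokinesis). Ccna2 had 225 and 186 CPM in the knockout and 159 and 149 CPM in the wild type, a log2 fold change of 0.42 (SE 0.13). Kif23 had 131 and 109 CPM in the knockout and 77.3 and 94.6 CPM in the wild type, a log2 fold change of 0.48 (SE 0.15). Prl2 knockout replicate 1 was the highest library for 15 of the 16 genes, and for 25.1% of all genes.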

How the data were processed

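RNA-seq read counts per gene were analysed in 2 Prl2 knockout and 2 wild type libraries, grouped by their titles. The authors deposited 1 table of whole-number counts for 13614 genes, with STAR, Bowtie2, featureCounts and mm10 named in the submitters' processing notes. Which step each tool did, its version and the strandedness of counting are not given in the labels. The deposited table, per its file headers, also has the authors' log2 fold change, log2 CPM, log2 RPKM, p-value and adjusted p-value columns. Symbols of 18 genes that had been turned into dates were restored from their IDs.

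Counts were tested with edgeR 4.0.16 (R 4.3.3) (robust quasi-likelihood F-test, TMM factors, genotype as the single term). filterByExpr kept all 13614 genes, and p-values are two-sided and adjusted over all of them. The SE was taken as the log2 fold change over the square root of F. Log2 CPM used a prior count of 2. Alternatives were DESeq2 1.42.0 and its size factors, limma-voom (limma 3.58.1), the likelihood ratio test, other filters, each library left out, a replicate block and removal of the trend on gene length. Fits were tested on simulated data. Exons were compared with GENCODE M21, where all 38 IDs were found, and 10 targets share exonic bases with another gene.

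Replicate libraries were not copies of each other: between them the chi-square averaged 18.7 a gene in the knockout and 33.8 in the wild type, above sampling noise. The members, classes and lists were chosen with earlier results of these data known, so no p-value is adjusted over a list. Genes given with full values are Cdkn1a, Bax, Bbc3, Pmaip1, Ccng1 and Zmat3, the 4 genes of smallest p and the 2 of highest level in each class, those at an unadjusted p under 0.05, and those with replicates 2-fold or more apart. Of each other list, the 2 genes of smallest p were taken, with Trp53 and Mdm2.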

Additional observations from a re-analysis of the deposited data

How the results depend on the processing

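The count of called targets was 0 under every alternative run. Over all genes, 1 was called, against 92 by DESeq2 and 65 by edgeR's likelihood ratio test, and 0 to 8 with 1 library left out. With 1 library left out, targets at an unadjusted p under 0.05 numbered 2 to 10 and targets with no overlap 24 to 32. The medians then ran from -0.071 to 0.25 for all targets, 0.15 to 0.36 for arrest and feedback, -0.20 to -0.029 for apoptosis, 0.074 to 0.28 for repair and -0.22 to 0.28 for metabolism. The lone library of a genotype is assumed to vary like the other genotype. The 30 targets given with full values were picked in part for replicates 2-fold or more apart. Sign changes were not counted over all genes. Of the 30, 13 changed sign without 1 library, and the cause was not tested. Their log2 fold changes ran from -1.38 to 0.66 for Ak1, -0.19 to 0.17 for Bax, -0.42 to 0.067 for Bbc3, -0.63 to 0.61 for Btg2, -0.10 to 0.50 for Cdkn1a, -0.065 to 0.33 for Ddb2 and -1.43 to 0.44 for Ephx1. They ran from -0.20 to 0.12 for Gadd45a, -2.02 to 1.72 for Phlda3, -0.036 to 1.67 for Plk2, -0.69 to 0.32 for Pmaip1, -0.11 to 0.44 for Polk and -0.96 to 0.22 for Sesn1. After removal of the length trend, Bax was at 0.088 and Gadd45a at 0.066. The labels give the same-numbered libraries nothing in common but the number, and the correlation of their deviations was -0.14. With 2 libraries a genotype, that value cannot tell whether they were paired. The fit with a replicate block gave 1 gene called over all genes, 0 targets called and 4 targets at an unadjusted p under 0.05. A crossed pairing, added after the data were seen, gave the same 3 counts but not the same 4 targets. Beside Apaf1, Cd82 and Bloc1s2, they included Ccng1 with the block and Perp with the crossed pairing. The stricter filter removed 1 target. At 2 libraries a genotype, the intervals of 12 targets still include a 2-fold change.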
